A study of Mus musculus with 6 samples.

Results

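MMERVK10C is a mouse endogenous retrovirus of the ERVK family. Its RNA and that of the RLTR10 long terminal repeats (LTRs) were measured as 11 of the 1336 rows of a repeat RNA table, namely every row whose name starts with MMERVK10C or RLTR10. A row is a repeat subfamily, summed over all its copies in the genome, so that it has no single chromosome position. There were 2 internal-region rows, MMERVK10C-int and RLTR10-int, and 9 LTR rows, RLTR10, RLTR10A, RLTR10B, RLTR10B2, RLTR10C, RLTR10D, RLTR10D2, RLTR10E and RLTR10F. The rows were chosen by name and not by their values, and all 11 had enough counts to be tested. RNA came from mouse embryonic fibroblasts, connective-tissue cells cultured from embryos, of BALB/c strain and taken from embryos aged 10.5 days. The groups were wild-type cells (WT) and cells lacking both alleles of Actb, the gene of β-actin (KO), with 3 libraries each and no other treatment named. The series calls them biological replicates, but nothing in the labels used here says how many embryos or cell lines they came from, so p-values measure the spread between these libraries. The rows hold no protein-coding genes, and neither Actb RNA nor fibroblast markers were analysed here.

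An ERVK provirus consists of an internal region, which in intact copies encodes the viral proteins, between a pair of LTRs that hold the promoter, enhancer and polyadenylation signals. Most copies in the mouse genome are damaged, and recombination between the LTRs has left many solitary LTRs, which can be transcribed from their own promoter or as part of a host gene. In many cell types such elements are silenced through KRAB zinc finger proteins, TRIM28, the histone methyltransferase SETDB1 and DNA methylation, and MMERVK10C is known for its release in mouse neural progenitor cells without TRIM28. β-actin is best known as a cytoskeletal protein but is also found in the nucleus, where it is a subunit of chromatin remodelling complexes.

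Library totals, summed over the 1336 rows, ran from 7708630 to 19288620 fractional counts, and much of the spread was ribosomal RNA (rRNA). Shares of rRNA here and below are shares of these row totals. Reads outside the rows are not counted, so the shares do not give the rRNA content of a whole library. Across WT replicates 1 to 3 the rRNA share of counts was 32.4%, 84.1% and 73.7%. Across KO replicates 1 to 3 it was 84.8%, 52.9% and 77.0%. WT replicate 1 and KO replicate 2 thus stood apart with little rRNA, and results below are also given without them where that matters. Levels are in normalized CPM, with library sizes scaled by TMM, and every list of values runs from replicate 1 to replicate 3. Values were not corrected for the length of a repeat, so shares of counts describe where the reads fell and not which element had more RNA per length.

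After TMM scaling the summed level of the 11 rows was close in all 6 libraries, while their share of the counts was not. They summed to 10966, 3401 and 6314 counts in WT and to 3690, 8944 and 6991 counts in KO. On the normalized scale this was 446 ± 8.29 normalized CPM in WT (mean ± SD, n = 3) and 456 ± 14.1 in KO, and the libraries of the genotypes overlapped. As a share of all ERVK counts, however, the rows took from 0.533% in KO replicate 1 (exact Clopper-Pearson 95% binomial interval 0.516% to 0.551%, for counting error only) to 2.75% in WT replicate 1. The lowest shares, in KO replicate 1 and WT replicate 2, were in the libraries with the most rRNA. MMERVK9C_I-int, the ERVK row with the most counts and not a member, took between 12.1% of ERVK counts (WT replicate 1) and 44.7% (KO replicate 1). Its level followed the rRNA share in the order of all 6 libraries, from 2002 normalized CPM in the one with the least rRNA to 37852 in the one with the most, so the total of ERVK counts moves with rRNA as well. That row was looked at after its values were seen, and the part of rRNA in it was not tested. With it left out, the members' share still lay between 0.959%, in WT replicate 2, and 3.13%, in the WT library with the least rRNA.

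Internal regions supplied more of the counts than the LTR rows, and the internal share differed between libraries of one genotype as much as between genotypes. The 2 internal rows held 56.4% ± 3.93 (SD, n = 3) of the members' counts in WT and 54.9% ± 3.17 in KO. RLTR10-int took more reads than MMERVK10C-int in all libraries except KO replicate 1, with 34.4%, 32.1% and 33.8% of the members' counts in WT and 29.1%, 32.1% and 30.5% in KO. MMERVK10C-int held 18.6%, 28.6% and 21.7% in WT and 29.4%, 21.2% and 22.3% in KO. Its share was highest in KO replicate 1 and WT replicate 2, the libraries with the most rRNA. Among the LTRs, RLTR10F held 11.8% to 13.8%, RLTR10C 7.29% to 9.56% and RLTR10 5.82% to 8.63%, while RLTR10D2 took at most 1.29%.

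**Figure D1:**
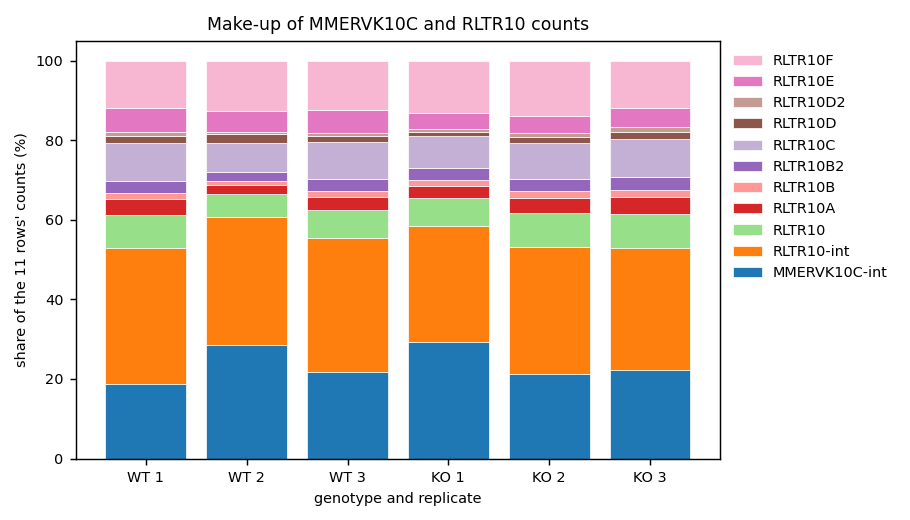
Share of the 11 rows' summed counts (vertical axis, percent) that each row took in each of the 6 libraries (horizontal axis), stacked to the whole. The 2 internal rows at the bottom fill 52.8% to 60.7% of each bar, and the MMERVK10C-int part is largest in WT replicate 2 and KO replicate 1.

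The comparison of KO with WT asked whether loss of β-actin went with another RNA level of these elements. No row of the group passed the test in either direction, by edgeR's quasi-likelihood test, by DESeq2 or by limma-voom (0 of 11 each, Benjamini-Hochberg adjusted over all 1193 tested rows). Over all tested rows 5.78% passed, 2.18% higher and 3.6% lower in KO. At an unadjusted p below 0.05, 1 of the 11 rows, RLTR10E, would have counted, against 20.9% of all rows. Fold changes were above 0 for 8 of the 11 rows, as they were for 52.3% of all tested rows, and below 0 for RLTR10-int, RLTR10D and RLTR10E, with a median log2 fold change of 0.12 against 0.01 for all tested rows. This direction depends on the scaling. With total counts as library size, rRNA included, the median of all rows moved to -0.36 and that of the members to -0.27, and all 11 lay below 0. In 2 of 11 rows, 1 in each direction, the KO libraries did not overlap the WT libraries, where 25.8% of all tested rows showed this, 12.4% with KO higher and 13.4% with KO lower.

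**Figure D2:**
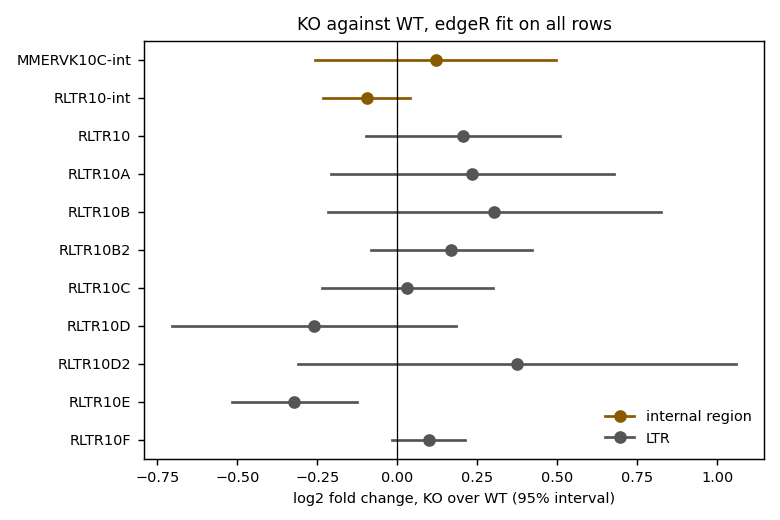
Log2 fold change of KO over WT (horizontal axis) of each of the 11 rows, as points with 95% intervals from edgeR; brown marks internal regions and grey marks LTRs. The intervals of 10 rows cross 0, and that of RLTR10E, from -0.52 to -0.13, does not.

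MMERVK10C-int, the internal region of the MMERVK10C provirus, was at 84.8, 127 and 95.1 normalized CPM in WT and at 133, 94.0 and 105 in KO. WT replicate 2 and KO replicate 1 were high, the others low, and the groups overlapped. Its means were 102 ± 21.7 in WT and 111 ± 20.0 in KO (SD, n = 3). The log2 fold change was 0.12 (SE 0.16, edgeR adjusted p = 0.731). The 95% interval of the fold, not adjusted over rows, ran from 0.837 to 1.41, so these values allow a change within this range. It is not a limit of detection, as larger changes can also miss the adjusted threshold. The sign was set by single libraries: the log2 fold change was -0.00172 without WT replicate 1 and -0.03 without KO replicate 1. It was 0.29 without WT replicate 2.

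Over all 6 libraries, whatever the genotype, the level of MMERVK10C-int had the same order as the rRNA share. From the library with the least rRNA to that with the most, WT replicate 1, KO replicate 2, WT replicate 3, KO replicate 3, WT replicate 2 and KO replicate 1, it was higher at each step. Pearson's r with the rRNA share was 0.83 (exact permutation p = 0.0542, n = 6 libraries) and Spearman's rho was 1 (exact permutation p = 0.00278, the smallest that 6 libraries can give). Adjusted over the 1135 tested rows outside structural RNA these became 0.994 and 0.525, and no row passed. Only 6 of these 1135 rows, 0.529%, had a rho of 1 and none had -1. Without WT replicate 1 and KO replicate 2, the libraries farthest from the median rRNA share, r was 0.996. That value rests on the few libraries left, at 73.7%, 77.0%, 84.1% and 84.8% rRNA, and is given with no test. With the rRNA level as a covariate in edgeR the log2 fold change of KO over WT was 0.06 (adjusted p = 0.702). The part of rRNA content in the level of MMERVK10C-int was not tested.

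RLTR10-int, the other internal region, was the row with the most counts of the group, from 1074 to 3770 per library, and it varied less between replicates than MMERVK10C-int. It was at 156, 142 and 148 normalized CPM in WT and at 132, 143 and 144 in KO. WT replicate 2 lay below both KO replicates 2 and 3, so the groups overlapped. The log2 fold change was -0.10 (SE 0.06, edgeR adjusted p = 0.413), and the 95% interval of the fold, 0.851 to 1.03, was narrow. Unlike MMERVK10C-int it tended to be lower in libraries with more rRNA, with r = -0.76 (exact permutation p = 0.0819, n = 6 libraries) and rho = -0.83 (exact permutation p = 0.0583). These p-values were adjusted to 0.994 and 0.779 over the same 1135 rows. Without WT replicate 1 and KO replicate 2, r was -0.83 over the few libraries left, with no test.

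**Figure D3:**
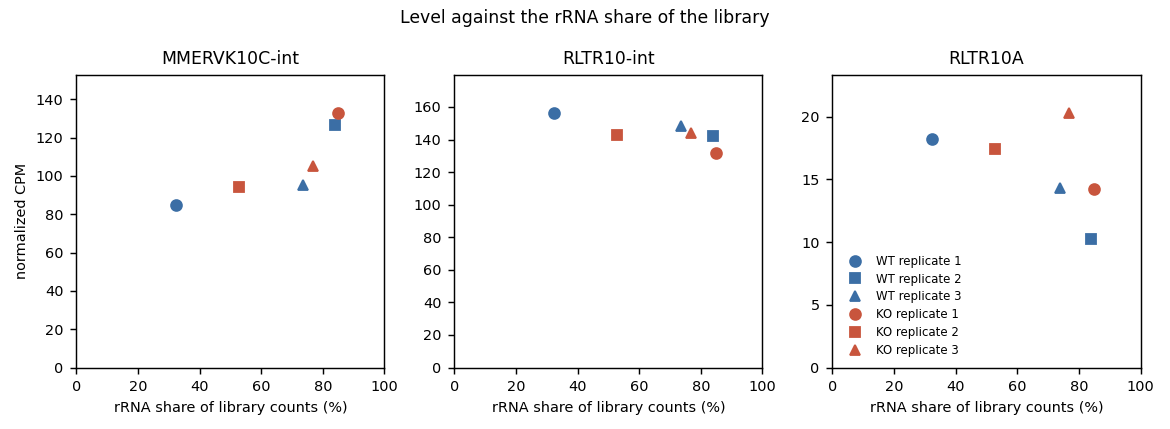
Normalized CPM (vertical axes) of MMERVK10C-int, RLTR10-int and RLTR10A against the rRNA share of library counts in percent (horizontal axes). Library counts are summed over the 1336 rows. There is 1 point per library, blue for WT and red for KO. MMERVK10C-int runs from 84.8 in WT replicate 1 to 133 in KO replicate 1, while RLTR10-int stands at 156 and 132 in these libraries.

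RLTR10E was the LTR with the lowest p of the group. It was at 27.1, 24.3 and 25.1 normalized CPM in WT and at 18.9, 19.7 and 22.7 in KO. All 3 KO libraries lay below all 3 WT libraries, with KO replicate 3 closest to them. The means were 25.5 ± 1.41 and 20.4 ± 1.99 (SD, n = 3), a KO level of 0.801 of WT. The log2 fold change was -0.32 (SE 0.09, edgeR adjusted p = 0.0687), outside the threshold of 0.05. It passed in 1 of 16 alternatives, without KO replicate 3, at -0.41 (edgeR adjusted p = 0.0484). Over the alternatives the adjusted p ran up to 0.998, on the total-count scale. Without both libraries with the least rRNA the log2 fold change was -0.23 (edgeR adjusted p = 0.409).

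RLTR10F, the LTR row with the most counts, was nearly the same in all WT libraries, at 54.5, 55.5 and 54.5 normalized CPM, and stood at 59.1, 61.3 and 55.6 in KO. The KO libraries lay above the WT libraries, but KO replicate 3 by far less than the SD of either genotype. The means were 54.8 ± 0.590 and 58.6 ± 2.87 (SD, n = 3), and the log2 fold change was 0.10 (SE 0.05, edgeR adjusted p = 0.308). On the total-count scale it was -0.24.

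A ratio of 2 rows of one library does not depend on scaling. There were 2.02, 2.28 and 2.18 RLTR10F counts per RLTR10E count in WT, and 3.13, 3.11 and 2.45 in KO. The KO libraries all lay above the WT libraries, with means of 2.90 ± 0.385 and 2.16 ± 0.135 (SD, n = 3). This pair was picked after its values were seen and is given with no test. On the normalized scale RLTR10F already lay higher and RLTR10E lower in all KO libraries. Their ratio therefore had to separate the genotypes and adds no support to either row.

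RLTR10C, the LTR annotated with MMERVK10C proviruses, was at 43.5, 32.3 and 40.8 normalized CPM in WT and at 35.4, 39.8 and 44.9 in KO. The genotypes overlapped, with the lowest WT and the lowest KO value in the libraries with the most rRNA, where MMERVK10C-int was highest. The log2 fold change was 0.03 (SE 0.12, edgeR adjusted p = 0.921), and it was -0.07 without WT replicate 2 and -0.06 without KO replicate 3. In each genotype RLTR10C and MMERVK10C-int were highest in different libraries, and over the 6 libraries their log2 levels had a Pearson r of -0.78, given as a description.

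RLTR10, RLTR10A and RLTR10D2 varied together. RLTR10 was at 37.0, 25.7 and 30.8 normalized CPM in WT and at 31.5, 37.0 and 40.7 in KO. RLTR10A was at 18.2, 10.3 and 14.3 in WT and at 14.2, 17.4 and 20.3 in KO, and RLTR10D2 at 4.85, 2.21 and 3.34 in WT and at 3.31, 4.77 and 6.07 in KO. In each row WT replicate 2 was the lowest WT library, KO replicate 1 the lowest KO library and KO replicate 3 the highest of all, and the groups overlapped. As a description over the 6 libraries, the log2 levels of these rows had a Pearson r of 0.994 to 0.998 with each other. RLTR10B, RLTR10B2 and RLTR10C followed them less closely, with an r of 0.908, 0.918 and 0.922 with RLTR10A. All these rows share libraries and may share reads, as the rule for reads that match several subfamilies was not given in the sources used here. Log2 fold changes were 0.20 ± 0.13 (SE) for RLTR10, 0.23 ± 0.19 for RLTR10A and 0.37 ± 0.30 for RLTR10D2, with edgeR adjusted p of 0.428, 0.536 and 0.520. These sizes hung on single libraries. Leaving out 1 library gave 0.10 (without WT replicate 2) to 0.36 (without WT replicate 1) for RLTR10, 0.09 to 0.47 for RLTR10A in the same fits, and 0.17 (without KO replicate 3) to 0.74 (without WT replicate 1) for RLTR10D2. Without both libraries with the least rRNA they were 0.36, 0.49 and 0.77, and none passed. RLTR10D2 rested on 17 to 117 counts per library, and its 95% interval of the fold was the widest of the group, 0.807 to 2.08.

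RLTR10B and RLTR10B2, LTRs described elsewhere as enhancers in male germ cells, had fold changes above 0 without passing the test. RLTR10B was at 7.01, 3.51 and 7.17 normalized CPM in WT and at 6.62, 7.85 and 8.36 in KO. RLTR10B2 was at 13.6, 10.9 and 12.8 in WT and at 13.7, 13.5 and 15.6 in KO. WT replicate 2 was the lowest library in both rows, with 27 counts of RLTR10B, and the genotypes overlapped. Log2 fold changes were 0.30 ± 0.23 (SE) and 0.17 ± 0.11, with edgeR adjusted p of 0.493 and 0.428. RLTR10D was at 8.05, 9.10 and 7.17 in WT and at 4.90, 6.31 and 8.36 in KO, with a log2 fold change of -0.26 ± 0.19 (SE) and an edgeR adjusted p of 0.491. KO replicate 3 lay among the WT libraries. When single libraries were left out, RLTR10B ran from 0.12 (without WT replicate 2) to 0.44 (without WT replicate 1), RLTR10B2 from 0.09 (without KO replicate 3) to 0.25 (without WT replicate 1) and RLTR10D from -0.47 (without KO replicate 3) to -0.14 (without KO replicate 1).

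**Figure D4:**
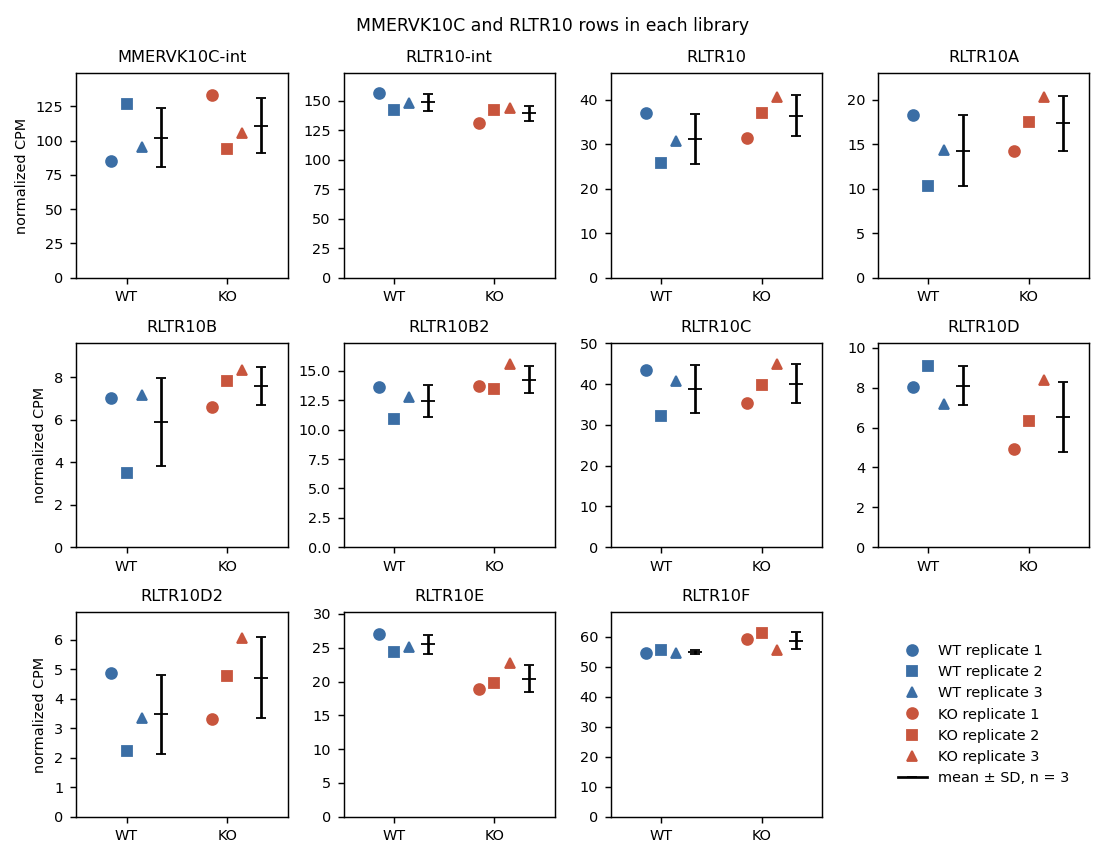
Normalized CPM (vertical axes, each from 0) of the 11 rows in the 3 WT libraries (blue) and 3 KO libraries (red), with symbols for replicate numbers and black bars for mean ± SD. RLTR10E is the row whose KO libraries (18.9 to 22.7) all lie below WT (24.3 to 27.1), and RLTR10F the row whose KO libraries all lie above WT.

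Between the libraries with the most and the least rRNA, 7 of the 9 LTR rows were lower where rRNA was highest in WT and 8 of 9 in KO. The same held for 585 and 582 of the 1135 tested rows outside structural RNA, and for 156 and 151 of the other 264 tested ERVK rows. Several of the 9 LTR rows varied together and may share reads, so they are not separate observations. Over all 6 libraries the relation of the LTR rows to the rRNA share was weak, with r from -0.55 to 0.02 (smallest exact permutation p = 0.249) and rho from -0.60 to 0.26 (smallest exact permutation p = 0.242), and adjusted p-values of 0.883 or more over the 1135 rows. The level in the WT library with the least rRNA over that in the one with the most had a median of 1.35 over the LTR rows, and 1.18 in KO, against 1.01 in both genotypes over the 1135 rows and 1.05 and 1.02 over the other 264 tested ERVK rows. For MMERVK10C-int these ratios were 0.670 and 0.707. No member fell in strict order of rRNA in both genotypes, as 3.79% of the 1135 rows did, and 1, MMERVK10C-int, was higher at each step in both, as were 5.73% of the 1135 rows. The part of rRNA content in these differences was not tested.

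MMERVK10C-int was then set against other rows of the same library, in 5 ratios that include the leading internal rows of the ERVK relatives ETn/MusD and IAP. ETnERV-int, of the ETn/MusD group, was higher in KO, by 0.64 on the log2 scale (edgeR adjusted p = 0.00474). The log2 ratio of MMERVK10C-int to ETnERV-int was -2.08, -1.73 and -2.02 in WT and -2.28, -2.69 and -2.42 in KO. All KO libraries lay below all WT libraries, and the KO mean less the WT mean was -0.52, with an exact two-sided permutation p = 0.1, the smallest that 3 against 3 libraries allow (0.5 adjusted over the 5 ratios). The ratio to IAPEz-int, the main internal region of intracisternal A particles, was -2.36, -1.86 and -2.15 in WT and -1.51, -2.03 and -1.77 in KO, a difference of 0.35 (exact two-sided permutation p = 0.2, 0.5 adjusted). Here KO replicate 2 fell among the WT libraries.

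Within the group, the log2 ratio of MMERVK10C-int to RLTR10-int differed by 0.22 between the genotypes (exact two-sided permutation p = 0.5), that to RLTR10C by 0.07 (p = 0.8) and that to RLTR10E by 0.44 (p = 0.3), and in all of them the genotypes overlapped. Their adjusted p-values were 0.625, 0.8 and 0.5. Each of these 3 ratios was highest within its genotype in the library with the most rRNA. The same held for the ratios to ETnERV-int and IAPEz-int, and all 5 share MMERVK10C-int as the numerator.

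**Figure D5:**
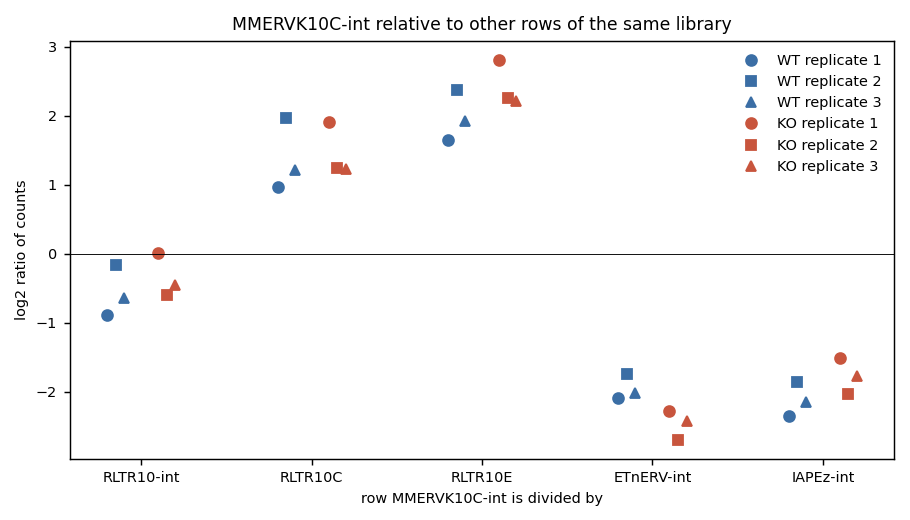
Log2 ratio of MMERVK10C-int counts to the counts of 5 other rows (horizontal axis) in each library, blue for WT and red for KO. Only for ETnERV-int do all KO libraries (-2.69 to -2.28) lie below all WT libraries (-2.08 to -1.73).

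The other ERVK rows give the setting. Of 264 tested ERVK rows outside the group, 14 were higher and 7 lower in KO by edgeR, with a median log2 fold change of 0.00307. Over all tested rows 2.18% were higher and 3.6% lower. Of 5 ETn/MusD rows 4 were higher, with a median of 0.55, and of 25 IAP rows none was higher and 3 were lower, with a median of -0.05. Repeat rows known from other cell types were present for 5 of 6 names, and none passed by edgeR: MERVL-int and MT2_Mm of the cleavage-stage embryo, RLTR13D5 of trophoblast and RLTR9E and RLTR45-int of embryonic stem cells. At an unadjusted edgeR p below 0.05, 2 of the 5 would have counted, against 20.9% of all tested rows. They were RLTR13D5 at 0.29 and RLTR45-int at 0.20 on the log2 scale. The summed level of the 5 rows ran from 283 to 1199 normalized CPM in WT and from 334 to 1016 in KO. Most of that range was MT2_Mm, at 59.0 to 959 in WT and 93.4 to 745 in KO, whereas MERVL-int was at 94.2 to 106 in WT and 94.8 to 119 in KO.

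The rows most like MMERVK10C-int over the 6 libraries, among 895 rows averaging 50 counts or more, came from several repeat classes. RLTR6-int, of the VL30 group of ERV1 elements, had a Pearson r of 0.97 on the log2 scale, the SINE row B4 0.95, L1MdV_I 0.95, the ERVK LTR RLTR22_Mus 0.94 and L1MdA_VI 0.94, where the median over the 895 rows was -0.01. None of these 5 passed the comparison of KO with WT, with log2 fold changes of 0.02 to 0.14. The rows most like RLTR10E were RLTR1F_Mm (r = 0.97), IAPA_MM-int (0.94), the DNA transposon MER91A (0.94), LTRIS_Mus (0.94) and HERV16-int (0.93). Of these, RLTR1F_Mm and LTRIS_Mus were called lower in KO, at log2 fold changes of -0.47 and -0.21 (edgeR adjusted p = 0.0399 and 0.0497). All these likenesses are descriptions over the same 6 libraries, with no test. Genotype means were left in, and RLTR10E was lower in all KO libraries, so the choice of its nearest rows favoured rows lower in KO.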

How the data were processed

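Libraries were made with a TruSeq Ribo-Zero kit from total RNA, per the labels. FastQC 0.11.5, Trimmomatic and Bowtie2 and the builds mm10 and GRCm38 are named in the submitters' processing notes. What counted the repeats, on which annotation and with what use of strand, was not given in the sources used here. For each sample the authors deposited one estimated count per repeat subfamily (fractional counts, per the file names), not normalized, and all values were whole. Transcription from a repeat's own promoter and read-through from a host gene both count towards a row.

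Groups and replicate numbers came from the sample titles. All 1336 rows were fitted in R 4.3.3 with edgeR 4.0.16: filterByExpr left 1193 rows and removed 143, libraries were scaled by TMM, and the genotypes were compared with the quasi-likelihood test (Benjamini-Hochberg over the 1193 rows, threshold 0.05). Standard errors and 95% intervals came from the test statistic. Row ratios used counts plus 0.5 and an exact permutation test. Likeness used log2 CPM with a prior count of 2. Alternatives were DESeq2 1.42.0 (size factors and test), limma-voom (limma 3.58.1), total counts, other filters, leaving out structural RNA, a replicate block, an rRNA covariate and leaving out libraries. Named rows were all 11 members, the comparison rows ETnERV-int and IAPEz-int, and the 5 rows most like MMERVK10C-int and RLTR10E. The members, lists and tests were chosen with earlier results of these data known. Leaving the largest ERVK row out of a total was added after seeing these values.

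On simulated counts for this comparison (1193 rows, 5 simulations, 200 changed rows each) the procedure found 62.8% of 1.5-fold and 87.8% of 2-fold changes, and 3.67% of its calls were rows without a change. Counts were drawn from the fitted dispersions with no shift tied to rRNA, and more rows were changed than the 69 called in the data. These percentages are averages over all rows, so they do not give the power for the members. Within a genotype each pair of replicates differed beyond sampling noise (chi-square per degree of freedom at least 477). This value includes the rRNA rows, whose share differed widely between replicates, so it does not measure the other repeat rows alone. Same-numbered WT and KO libraries showed no common deviation (r of -0.44, -0.39 and 0.02 for numbers 1, 2 and 3), and the labels give no shared origin, so samples were treated as unpaired. Some libraries with different numbers did deviate together. For WT replicate 1 and KO replicate 2, with the least rRNA, r was 0.51. For WT replicate 2 and KO replicate 1, with the most, it was 0.34. The other pairs had r from -0.13 to 0.10.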

Additional observations from a re-analysis of the deposited data

How the results depend on the processing

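No member was called higher in KO in any alternative. The count called lower was 0 except without KO replicate 3, when RLTR10E made it 1 (range 0 to 1 when leaving out single libraries). With total counts as library size the log2 fold changes turned to -0.21 for MMERVK10C-int, -0.26 for RLTR10, -0.27 for RLTR10A, -0.14 for RLTR10B, -0.28 for RLTR10B2, -0.41 for RLTR10C, -0.17 for RLTR10D2 and -0.24 for RLTR10F, where the median of all rows is -0.36. When single libraries were left out, the log2 fold change of MMERVK10C-int ran from -0.0329 to 0.29 (-0.0329 without KO replicate 1, -0.00172 without WT replicate 1), that of RLTR10C from -0.0691 to 0.12 (-0.0691 without WT replicate 2, -0.0614 without KO replicate 3), and the genotype difference of the log2 ratio of MMERVK10C-int to RLTR10C from -0.15 to 0.37, each with a change of sign; the cause was not tested. RLTR10E ran from -0.41 to -0.27. The ratio to ETnERV-int stayed between -0.61 and -0.40. The members' share of ERVK counts differed between genotypes by -0.24 percentage points, and by -0.70 to 0.41 when single libraries were left out. With the replicate block, 10 rows were called higher and 14 lower over the table (26 and 43 without it), and no member was called, RLTR10E being at -0.32 (edgeR adjusted p = 0.192). Calls over the table were 40 and 69 with the rRNA covariate, 20 and 21 without structural RNA, and 2 and 7 without the least-rRNA library of each genotype. Depth limits RLTR10D2, RLTR10B and RLTR10D most, with 17, 27 and 40 counts in their lowest library.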
